A study of Mus musculus with 36 samples.

Results

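The genes described here build MHC class I molecules and prepare the peptides that these carry: H2-K1, H2-D1, H2-T23, B2m, Tap1, Tap2, Tapbp, Psmb8 and Psmb9. They are 9 genes chosen by name, among 15731 genes with a symbol and a measured probe on the array. Each gene was read by the probe that the array annotation gives to its symbol, and by the probe with the highest mean signal where there were several. A measured probe existed for 8 of the 9 genes, and these 8 passed the filter on dim signals, among 10533 features tested. The only H2-T23 probe held placeholder values on every array, so H2-T23, a nonclassical heavy chain, has no value here.

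Transcripts were measured on a one-colour Illumina bead array for the mouse in 36 samples. The OSE clones (8 samples) were lines of induced pluripotency (iPS), from mouse embryonic fibroblasts that overexpressed Oct4, Sox2 and Esrrb. The OSKT clones (11 samples) were made with Oct4, Sox2, Klf4 and Tbx3, and the OSK clones (11 samples) with Oct4, Sox2 and Klf4. The embryonic stem (ES) cells of the line D3 were 2 labelled replicates, in medium for mouse embryonic fibroblasts. Those of the line R1 were 4 labelled replicates, in medium for mouse ES cells. Line and medium cannot be told apart between them. The iPS samples are labelled as numbered clones, and whether the clones of a set arose from separate inductions is not stated. The labels give no mouse strain, feeder layer, passage or transgene vector for them.

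A class I molecule is a heavy chain, such as the products of H2-K1 and H2-D1, held by the light chain β2-microglobulin (B2m) around a short peptide. The proteasome cuts the peptides, and under interferon its catalytic subunits are replaced by Psmb8, Psmb9 and Psmb10, which form the immunoproteasome. The transporter of Tap1 and Tap2 moves peptides into the endoplasmic reticulum, where tapasin (Tapbp) holds the empty heavy chain beside it. Mouse ES cells are known for low class I on their surface, and fibroblasts carry it. The genes for Psmb9, Tap1, Psmb8 and Tap2 are neighbours in the MHC, and B2m lies on another chromosome.

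The promoters of these genes are shown because class I heavy chains, B2m and the Tap1 and Psmb9 pair are known to share regulatory motifs. RefSeq windows were available for 8 of the 9 genes, all but Tap2, and the 4 windows that hold H2-D1, H2-K1, B2m and the Tap1 and Psmb9 pair are printed 5′ to 3′ on the strand of the named gene. Capitals mark matches, on either strand, to GGGGATTCCCC (bound by NF-kB), AANTGAAA (an interferon response element core), TGACG (part of a cAMP response element) and CCAAT (bound by NF-Y). The motifs were picked after the sequences were seen, and a match is a run of letters, not a measured site. The H2-D1 window was the 250 bases before the start of transcription on the forward strand (GRCm38.p6, chr17:35262844-35263093).
H2-D1: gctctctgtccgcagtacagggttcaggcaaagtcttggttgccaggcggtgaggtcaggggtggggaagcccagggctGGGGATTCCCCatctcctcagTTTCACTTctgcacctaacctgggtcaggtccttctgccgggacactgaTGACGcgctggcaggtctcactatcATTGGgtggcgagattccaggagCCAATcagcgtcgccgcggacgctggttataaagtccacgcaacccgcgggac
The H2-K1 window was likewise 250 bases long and lay on the reverse strand (chr17:34000348-34000597).
H2-K1: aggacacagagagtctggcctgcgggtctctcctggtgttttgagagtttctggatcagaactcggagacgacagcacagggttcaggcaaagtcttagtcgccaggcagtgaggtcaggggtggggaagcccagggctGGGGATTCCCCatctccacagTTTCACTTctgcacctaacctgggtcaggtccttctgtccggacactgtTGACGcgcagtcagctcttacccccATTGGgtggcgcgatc
The B2m window lay on the forward strand (chr2:122147437-122147686).
B2m: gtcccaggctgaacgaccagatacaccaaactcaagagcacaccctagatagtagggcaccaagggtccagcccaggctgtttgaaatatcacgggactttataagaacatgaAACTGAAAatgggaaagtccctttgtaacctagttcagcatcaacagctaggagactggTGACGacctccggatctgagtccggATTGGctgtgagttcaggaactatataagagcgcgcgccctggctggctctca
The Tap1 and Psmb9 starts face away from each other, and the 225 bases between them lie before both genes, shown here on the strand of Tap1 (chr17:34187331-34187555).
Tap1 and Psmb9: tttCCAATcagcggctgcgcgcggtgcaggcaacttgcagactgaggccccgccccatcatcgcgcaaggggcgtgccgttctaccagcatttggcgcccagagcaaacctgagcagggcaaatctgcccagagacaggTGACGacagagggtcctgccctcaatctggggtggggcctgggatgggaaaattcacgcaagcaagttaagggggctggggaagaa
The H2-D1 and H2-K1 windows were alike, with 166 of 190 aligned positions identical (87.4%), and both held all 4 motifs. GGGGATTCCCC stood in 10 of 32851 RefSeq windows of 250 bases (0.0304%), these 2 among them, and H2-D1 by construction, since the letters were read from its window. AANTGAAA stood in 5.7% of those windows, TGACG in 17.8% and CCAAT in 33.8%. The B2m window held AANTGAAA, TGACG and CCAAT, and the shared Tap1 and Psmb9 window held TGACG and CCAAT, which stood in 16.8% and 31.6% of windows of 225 bases. No match overlapped another.

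Log2 signals were taken after background correction and quantile normalization, and each comparison was fitted with limma over all 10533 features. A gene was called changed where its Benjamini-Hochberg adjusted p was under 0.05. A signal counted as above background when it passed the 99th percentile of the noise of its array, which lay between 45.2 and 90.8 intensity units. Levels below are normalized log2 signals, differences are log2 differences of group means, and errors after ± are SD over samples unless SE is named. Levels of different genes come from different probes and are not comparable with each other.

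Several facts of the whole series touch these genes. Some clones resembled each other as closely as replicates of R1 did, and averaging these near-identical arrays leaves 5 OSE, 6 OSKT, 6 OSK, 1 D3 and 1 R1 sample. The cutoff was the lowest correlation between R1 replicates, so R1 became 1 sample by construction. Pou5f1 and Nanog, pluripotency factors, were above background on all 36 arrays, whereas Zfp42, a naive pluripotency marker, was at 7.67 ± 0.26 in OSE (SD, n = 8), 7.59 ± 0.26 in OSKT (n = 11) and 7.72 ± 0.16 in OSK clones (n = 11), against 12.33 ± 0.07 in D3 (n = 2) and 12.78 ± 0.07 in R1 (n = 4). The mean of 19 fibroblast markers ran from 9.59 to 10.41 in OSE, 9.20 to 9.99 in OSKT and 9.01 to 10.02 in OSK clones, against 8.46 to 8.51 in D3 and 9.20 to 9.27 in R1. Of 9 trophoblast markers, 7 were called higher in OSE, 8 in OSKT and 9 in OSK clones than in R1, and 0 lower (also 0 at an unadjusted p under 0.05 in limma). Over all features, 28.7%, 26.4% and 25.8% were called higher in those comparisons, and 29.9%, 27.9% and 28% lower. The leukocyte marker Ptprc was above background on 0 of 36 arrays, as were Itgam, Adgre1, Cd79a, Tyrobp and Fcer1g, among 12 measured markers. Cd3e, Cd3g, Lyz2, Coro1a and Laptm5 did pass the filter. In such bulk samples fewer cells of a type and less RNA per cell cannot be told apart.

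**Figure D1:**
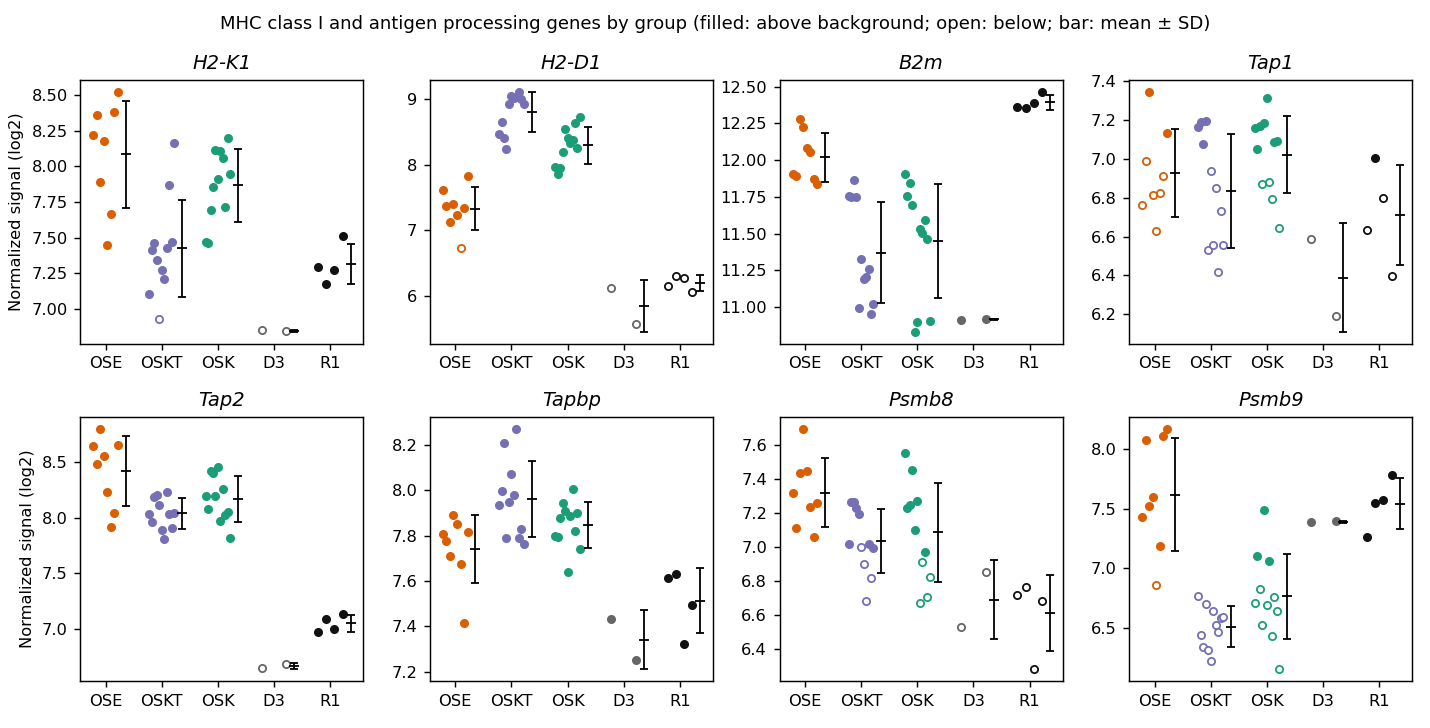
Normalized log2 signal of each of the 8 measured genes on every array, in OSE (n = 8), OSKT (n = 11), OSK (n = 11), D3 (n = 2) and R1 (n = 4), with bars at the group mean ± SD. Filled points are above background on their array and open points are not. H2-D1 is open on all 6 ES arrays and highest in OSKT clones, B2m is highest in R1, and Psmb9 is open on all 11 OSKT arrays.

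Compared with R1, the iPS clones had more signal for the heavy chain H2-D1, the transporter subunit Tap2, tapasin and Psmb8, and the OSKT and OSK clones had less for B2m and Psmb9. In OSE against R1, 5 of the 8 genes were called higher and 0 lower (1 lower at an unadjusted p under 0.05 in limma), with a median difference of 0.47 against 0.01 over all features, where 58.7% of features were called (28.7% higher and 29.9% lower). In OSKT against R1, 4 were called higher and 2 lower, with a median of 0.27 against -0.00, and 54.3% of all features were called (26.4% higher and 27.9% lower). In OSK against R1, 5 were called higher and 2 lower, with a median of 0.40 against 0.01, and 53.8% of all features were called (25.8% higher and 28% lower). The 3 comparisons share the R1 arrays. H2-D1 and Psmb8 were above background on no ES array and entered the fit through the clones alone, so these counts are descriptions and a share near the background is no result about the genes.

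Among the clones the genes moved apart. In OSE against OSK, 3 genes were called higher (B2m, Tap2 and Psmb9) and 1 lower (H2-D1), where 45.8% of all features were called (23.2% higher and 22.6% lower). The median over the 8 genes was 0.22 against 0.00 over all features. In OSKT against OSK, H2-D1 was called higher and H2-K1 lower, and 35.5% of all features were called (19.5% higher and 16% lower), with medians of -0.11 over the 8 genes and 0.00 over all features. In D3 against R1, B2m alone was called, in the lower direction, where 9.73% of all features were called (4.66% higher and 5.07% lower), with medians of -0.34 and 0.03. The clones taken as the mean of their 3 sets were called higher than D3 for 7 of the 8 genes, all but Psmb9, where 47.1% of all features were called (21.6% higher and 25.4% lower), with medians of 0.62 and -0.03. H2-K1, H2-D1, Tap1, Tap2 and Psmb8 were above background on 0 of 2 D3 arrays. The filter asked for 4 arrays, which D3 alone could not meet, and H2-D1, Tap1 and Psmb8 could pass it only through the clones. The count against D3 is therefore a description.

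**Figure D2:**
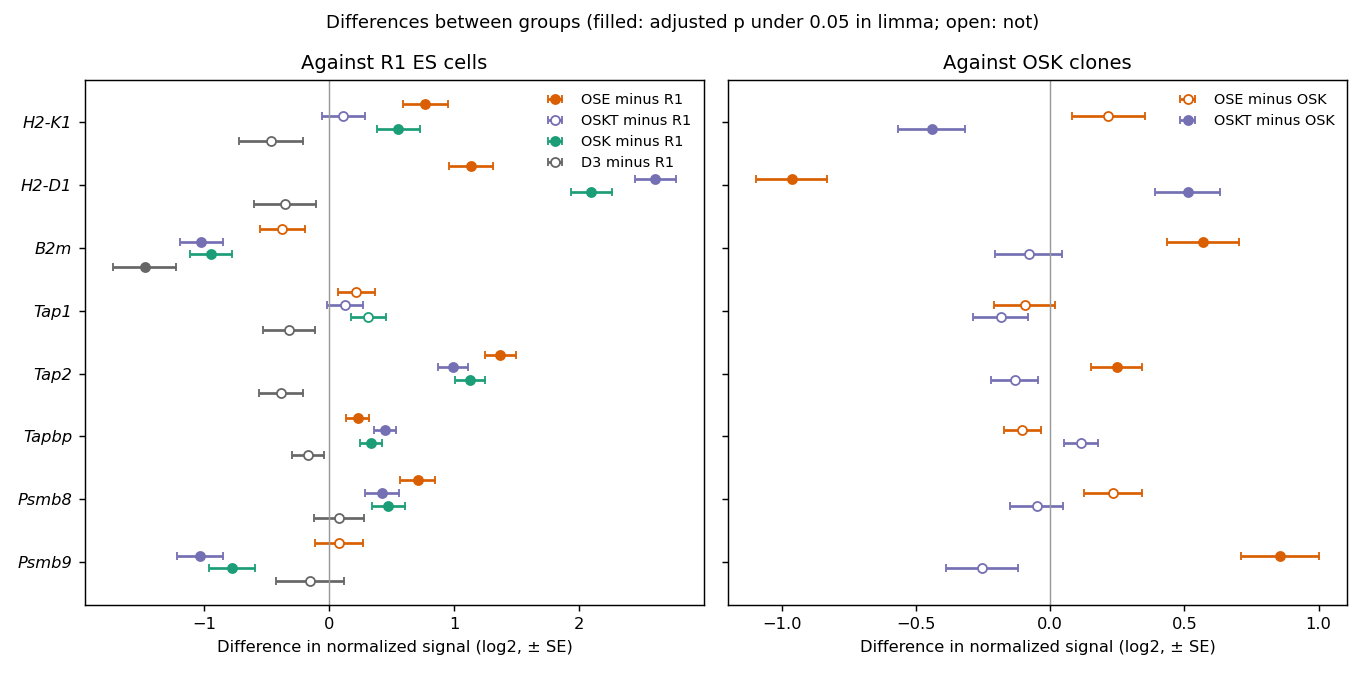
Log2 difference ± SE of the 8 measured genes in OSE, OSKT, OSK and D3 against R1 (left) and in OSE and OSKT against OSK (right), filled where the adjusted p is under 0.05. In OSKT and OSK against R1, H2-D1 lies farthest to the right, at 2.61 and 2.10, and H2-D1 and Psmb9 lie on opposite sides of 0 in OSE against OSK.

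Among heavy chains, H2-D1 showed a graded order of the 3 clone sets above both ES lines. Its signal was 33.0, 93.2 and 129.4 intensity units at the lowest, median and highest OSE clone. In OSKT clones it was 270.2, 379.1 and 520.7, and in OSK clones 141.2, 205.5 and 422.1. The 2 D3 arrays read -0.1 and -24.7 and the 4 R1 arrays ran from -2.9 to 12.5, so no ES array was above background. After normalization, the OSE and OSK ranges did not overlap (6.73 to 7.83 against 7.86 to 8.72), nor did OSE and OSKT (8.25 to 9.11 in OSKT), a pair for which no test was run.

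H2-D1 averaged 8.81 ± 0.31 in OSKT clones and 6.20 ± 0.12 in R1 (SD, n = 11 and 4). The OSKT mean was at least 3.76-fold higher against the lowest signal that counts as above background (log2 difference 2.61, 11 of 11 clones above the R1 mean). All further bounds are formed in the same way. The OSK clones, at 8.29 ± 0.29, exceeded R1 by at least 2.64-fold (11 of 11 clones). The OSE clones, at 7.33 ± 0.32, exceeded R1 by at least 1.35-fold (8 of 8 clones). Since H2-D1 passed the filter through the clone arrays alone, no test against R1 is given for it. H2-D1 fell by 0.96 on the log2 scale in OSE against OSK clones, a 1.95-fold difference (SE 0.13, adjusted p = 2.85e-07 by limma, 8 of 8 clones below the OSK mean). It was 1.43-fold higher in OSKT than in OSK clones (log2 difference 0.51, SE 0.12, adjusted p = 0.00124, 10 of 11 clones), a call that ended with near-identical arrays averaged (log2 difference 0.42). Within the clones numbered 1 to 4, H2-D1 averaged 8.44 in OSKT and 7.99 in OSK, and among higher numbers 9.01 and 8.47. Between D3 and R1 no fold can be given, since both were below background.

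H2-K1, the other classical heavy chain with a value, kept another order. It averaged 8.08 ± 0.38 in OSE clones (lowest 7.45, median 8.20, highest 8.52), 7.42 ± 0.34 in OSKT clones (6.93, 7.41 and 8.16) and 7.87 ± 0.25 in OSK clones (7.47, 7.91 and 8.20). The D3 replicates were at 6.85 and 6.84, below background on both, and the R1 replicates at 7.30, 7.18, 7.27 and 7.51. OSE clones were highest on average and D3 lowest, and the ranges of the 3 clone sets overlapped. H2-K1 fell by 0.44 in OSKT against OSK clones (SE 0.13, adjusted p = 0.00585 by limma, 9 of 11 clones below the OSK mean), while H2-D1 was higher there. The H2-K1 difference was -0.29 and no longer passed within the clones numbered 1 to 4. Against R1 it was 1.71-fold higher in OSE (log2 difference 0.77, adjusted p = 0.000396, 8 of 8 clones) and 1.47-fold higher in OSK clones (0.55, adjusted p = 0.00647, 11 of 11 clones). Both calls ended with near-identical arrays averaged, with differences of 0.84 and 0.64. The difference of OSKT from R1 was 0.11 (SE 0.17, adjusted p = 0.606). OSE did not pass against OSK (0.22, SE 0.14, adjusted p = 0.201), and passed at 0.52 with the fibroblast marker mean as a covariate. The clones exceeded D3 by at least 1.77-fold (30 of 30 clones, adjusted p = 0.000419).

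The 2 heavy chains are close relatives in sequence, and the files give no probe sequences, so cross-reading of one transcript by the other's probe was not tested. H2-K1 and H2-D1 are also polymorphic between mouse strains, and a mismatch between allele and probe was not tested. A second H2-K1 probe was above background on 0 of 36 arrays.

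Other class I and class I-like heavy chains came from a list of 29, of which 18 had a measured probe and 10 were tested, H2-K1 and H2-D1 included. Against R1, 4 were called higher and 2 lower in OSE, 4 and 1 in OSKT, and 4 and 2 in OSK clones, with medians of 0.16, 0.24 and 0.06, where 58.7%, 54.3% and 53.8% of all features were called. In OSKT against OSK, 5 were called higher and 1 lower, with a median of 0.21, where 19.5% of all features were called higher and 16% lower. In OSE against OSK, 3 were called higher and 5 lower, with a median of -0.10, where 23.2% of all features were called higher and 22.6% lower. Fcgrt, the neonatal Fc receptor, averaged 9.65 ± 0.30 in OSE, 11.38 ± 0.35 in OSKT and 10.74 ± 0.17 in OSK clones, against 10.26 ± 0.05 in D3 and 11.05 ± 0.15 in R1. Cd1d1, which presents lipids, was 0.67 higher in OSKT (adjusted p = 0.000114) and 0.46 lower in OSE clones (log2 difference -0.46, adjusted p = 0.00618) than in OSK, although the second call was lost with the fibroblast covariate (-0.05). H2-Bl differed from OSK by 0.67 in OSKT (adjusted p = 0.00868) and by -1.27 in OSE clones (adjusted p = 1.26e-05), the first of which did not pass with near-identical arrays averaged (0.43). Fcgrt, Cd1d1 and H2-Bl thus had the same order of clone sets as H2-D1, highest in OSKT and lowest in OSE. H2-T22, a nonclassical heavy chain, was 0.87, 0.67 and 0.71 above R1 in OSE, OSKT and OSK clones (adjusted p = 5.27e-09, 3.58e-07 and 1.27e-07), and was at least 1.77-fold lower in D3 than in R1 (adjusted p = 2.73e-08).

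The light chain B2m was lower than R1 in OSKT and OSK clones, where H2-D1 was higher. Its signal was far above background on all 36 arrays, from 1394.2 to 7315.2 intensity units. The OSE clones were at 11.84, 11.98 and 12.28 (lowest, median and highest), the OSKT clones at 10.95, 11.26 and 11.86, and the OSK clones at 10.83, 11.53 and 11.90. The D3 replicates were at 10.91 and 10.92, and the R1 replicates at 12.36, 12.36, 12.39 and 12.47. Every clone and both D3 replicates lay below every R1 replicate. B2m fell by 1.02 in OSKT (adjusted p = 4.01e-06 by limma, 11 of 11 clones) and by 0.94 in OSK clones (adjusted p = 1.49e-05, 11 of 11 clones) against R1, which is 2.03-fold and 1.92-fold lower. In OSE clones the difference from R1 was -0.37 (SE 0.18) and did not pass (adjusted p = 0.0707), although 8 of 8 clones lay below the R1 mean. That difference passed in 5 of 18 alternatives, and with the fibroblast marker mean as a covariate it was -1.22. The OSE marker means, 9.59 to 10.41, lay above those of R1, 9.20 to 9.27. Every OSE comparison with R1 under that covariate is therefore an extrapolation.

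B2m in D3 was 2.78-fold lower than in R1 (log2 difference -1.48, SE 0.25, adjusted p = 0.000111, 2 of 2 replicates), which did not pass with near-identical arrays averaged. The clones were 0.70 above D3 (adjusted p = 0.00716, 27 of 30 clones above the D3 mean). That call was lost without either D3 replicate (0.69 and 0.70), under median scaling (0.56) and with near-identical arrays averaged (0.64). With the fibroblast covariate B2m was called lower in the clones than in D3 (-0.50, adjusted p = 0.00309 by limma). The D3 marker means, 8.46 to 8.51, lay below those of all clones, 9.01 to 10.41. Every clone comparison with D3 under that covariate is therefore an extrapolation. OSE clones were 1.48-fold above OSK clones (log2 difference 0.57, SE 0.14, adjusted p = 0.000791, 8 of 8 clones), and the difference was 0.04 and did not pass with the covariate. OSKT and OSK clones differed by -0.08 (SE 0.12, adjusted p = 0.66). B2m also followed the clone numbers, which the fibroblast marker mean did too. In OSKT it averaged 11.78 ± 0.06 in clones 1 to 4 (SD, n = 4) and 11.14 ± 0.15 in clones 5 to 11 (n = 7), and in OSK 11.80 ± 0.09 and 11.25 ± 0.35. The marker mean ran from 9.78 to 9.99 and from 9.20 to 9.40 in those OSKT clones, and from 9.84 to 10.02 and from 9.01 to 9.56 in those OSK clones. The part of the fibroblast markers in the B2m values was not tested beyond these fits.

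**Figure D3:**
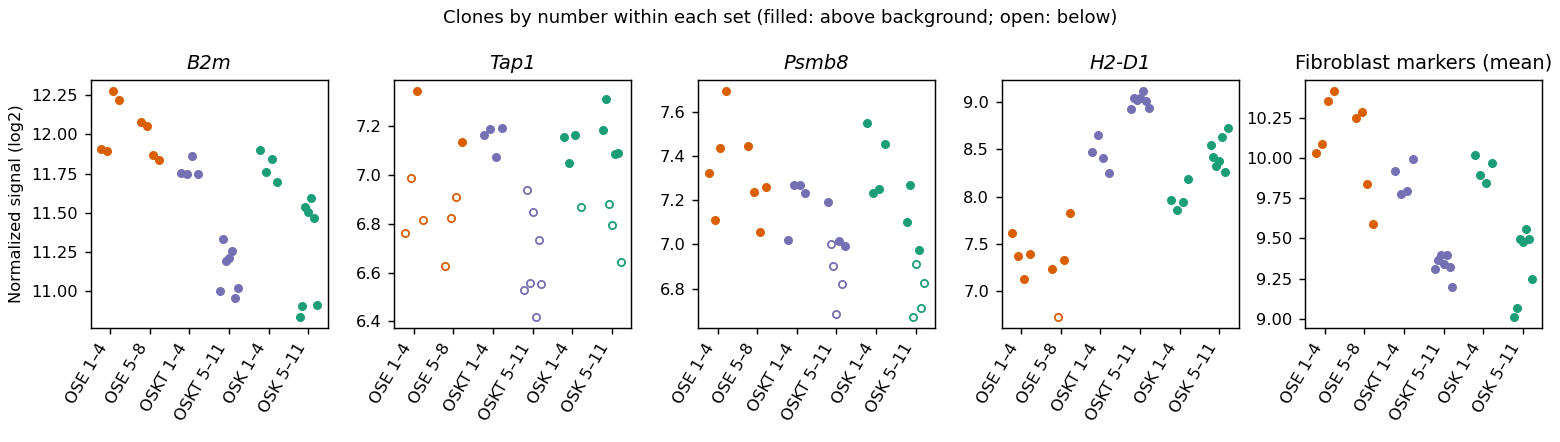
Normalized log2 signal of B2m, Tap1, Psmb8 and H2-D1 in the clones of each iPS set, split by clone number (1 to 4 against 5 and above), beside the mean of 19 fibroblast markers on the same arrays, with 1 point per array (filled above background, open below). B2m and the marker mean are higher in clones 1 to 4 of OSKT and OSK, and H2-D1 is lower there.

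Of the transporter pair, Tap2 separated the clones from the ES cells and Tap1 lay near background. Tap2 averaged 8.42 ± 0.32 in OSE (lowest 7.92, median 8.52, highest 8.80), 8.04 ± 0.14 in OSKT (7.81, 8.03 and 8.24) and 8.17 ± 0.21 in OSK clones (7.81, 8.19 and 8.46). The D3 replicates were at 6.64 and 6.68, both below background, and the R1 replicates at 6.97, 7.09, 7.00 and 7.13. No clone overlapped with either ES line. Tap2 was 2.58-fold higher in OSE (log2 difference 1.37, adjusted p = 1.84e-11 by limma, 8 of 8 clones), 1.99-fold higher in OSKT (0.99, adjusted p = 1.03e-08, 11 of 11) and 2.18-fold higher in OSK clones than in R1 (1.12, adjusted p = 6.93e-10, 11 of 11). The clones exceeded D3 by at least 2.37-fold (30 of 30 clones, adjusted p = 1.65e-10). D3 did not pass against R1 (log2 difference -0.39, adjusted p = 0.192), but passed in 4 alternatives, with -1.29 in the authors' scaled table. OSE was 0.25 above OSK (adjusted p = 0.0332, 6 of 8 clones), a call lost in 5 of 14 alternatives, which were near-identical averaging, the fibroblast covariate (0.20), the authors' scaled table (0.26), no filter on dim probes, and a fit to those sets alone. OSKT and OSK differed by -0.13 (adjusted p = 0.255).

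Tap1 was above background on 2 of 8 OSE, 4 of 11 OSKT, 7 of 11 OSK, 0 of 2 D3 and 1 of 4 R1 arrays. Group means ran from 6.84 in OSKT to 7.02 in OSK among clones, against 6.39 in D3 and 6.71 in R1. Its differences from R1 were 0.22 in OSE, 0.13 in OSKT and 0.31 in OSK clones and did not pass (adjusted p = 0.212, 0.467 and 0.0612), although OSK passed in 6 of 17 alternatives, among them the replicate block (0.47), no background correction (0.84) and the fit without R1 replicate 2 (0.41). OSE passed with the clone numbers as a term (0.33). In OSKT all 4 clones numbered 1 to 4 were above background, at 7.16 ± 0.06, and none of the 7 others was, at 6.65 ± 0.19. Against D3, 13 of 30 clone arrays and 0 of 2 D3 arrays were above background. Since Tap1 could pass the filter only through the clone arrays, no test against D3 is given for it. The clone mean read 0.54 above D3 on the log2 scale (30 of 30 clones above the D3 mean), and no fold bound can be given. The call counted above was lost with near-identical arrays averaged, with the fibroblast covariate (0.25) and without D3 replicate 2 (0.34).

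Tapbp, which encodes tapasin, was above background on all 36 arrays and changed little. It averaged 7.74 ± 0.15 in OSE (lowest 7.42, median 7.79, highest 7.89), 7.96 ± 0.17 in OSKT (7.76, 7.95 and 8.27) and 7.85 ± 0.10 in OSK clones (7.64, 7.88 and 8.01). The D3 replicates were at 7.43 and 7.25, and the R1 replicates at 7.61, 7.63, 7.32 and 7.49. All OSKT and OSK clones lay above every R1 replicate. The differences from R1 were 0.23 in OSE (adjusted p = 0.031, 7 of 8 clones), 0.45 in OSKT (adjusted p = 4.19e-05, 11 of 11) and 0.33 in OSK clones (adjusted p = 0.00146, 11 of 11), and all 3 calls ended with near-identical arrays averaged. The OSE call also ended with the fibroblast covariate (0.16, an extrapolation), in the authors' scaled table (0.18), in a fit to OSE and R1 alone, and without R1 replicate 3 (0.16) or 4 (0.22). The clones were 0.51 above D3 (adjusted p = 0.000204, 30 of 30 clones). OSE and OSKT each differed from OSK by 0.11 or less in size and did not pass.

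The list for peptide transport, trimming and loading held 16 genes, of which 15 were measured and 12 tested, with the 3 genes above included. Against R1, 5 were called higher and 3 lower in OSE, 3 and 4 in OSKT, and 4 and 3 in OSK clones, where 58.7%, 54.3% and 53.8% of all features were called. Ganab, a glucosidase subunit of the endoplasmic reticulum, fell by 0.75, 0.65 and 0.61 in those sets, and Nrd1, a peptidase, fell by 0.63, 0.35 and 0.43, where near-identical averaging ended the last 2 calls. Thop1, which degrades peptides in the cytosol, was higher in OSE clones (0.45, adjusted p = 8.46e-09), and its calls in OSKT and OSK turned sign under median scaling (-0.02 and -0.06). Under median scaling the median of all features against R1 was itself -0.10 in OSKT and -0.12 in OSK, where it was -0.00 and 0.01 after quantile normalization.

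The immunoproteasome subunits did not move as 1 group. Psmb8 averaged 7.32 ± 0.20 in OSE (lowest 7.06, median 7.29, highest 7.69), 7.04 ± 0.19 in OSKT (6.68, 7.02 and 7.27) and 7.09 ± 0.29 in OSK clones (6.67, 7.10 and 7.55). The D3 replicates were at 6.53 and 6.86 and the R1 replicates at 6.72, 6.77, 6.29 and 6.68, all below background. It was above background on 8 of 8 OSE, 7 of 11 OSKT and 7 of 11 OSK arrays. As bounds, Psmb8 exceeded R1 by at least 1.34-fold in OSE (8 of 8 clones), 1.10-fold in OSKT (11 of 11) and 1.14-fold in OSK clones (11 of 11). Since Psmb8 passed the filter through the clone arrays alone, no test against R1 or D3 is given for it. Of its calls in the counts above, those in OSKT and OSK were lost with near-identical arrays averaged. The OSKT call was also lost without R1 replicate 3 (log2 difference 0.31), and the OSE call with the fibroblast covariate (0.35, an extrapolation). The clones exceeded D3 by at least 1.14-fold (28 of 30 clones). The counted call was lost without D3 replicate 1 (0.29) and with near-identical arrays averaged (0.41), and the difference turned sign with the covariate (-0.05). Neither OSE (0.23, adjusted p = 0.0733) nor OSKT (-0.05, adjusted p = 0.731) passed against OSK, although OSE did with array weights (0.38).

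Psmb9 lay near background, and on average it was higher in OSE clones and both ES lines than in the other clones. Its signal was 41.2, 118.2 and 264.2 intensity units at the lowest, median and highest OSE clone, 3.5, 19.6 and 59.9 in OSKT and 3.8, 34.7 and 91.5 in OSK. The D3 replicates read 88.5 and 112.6, and the R1 replicates ran from 89.2 to 165.3. Psmb9 was above background on 7 of 8 OSE, 0 of 11 OSKT, 3 of 11 OSK, 2 of 2 D3 and 4 of 4 R1 arrays, and OSKT and R1 did not overlap. It averaged 7.62 ± 0.47 in OSE and 6.76 ± 0.36 in OSK clones, 1.81-fold higher in OSE (log2 difference 0.86, SE 0.15, adjusted p = 1.09e-05 by limma, 8 of 8 clones above the OSK mean). In OSKT clones, at 6.51 ± 0.17, it was at least 1.50-fold lower than in R1, at 7.54 ± 0.21 (adjusted p = 1.06e-05, 11 of 11 clones). In OSK clones it fell by 0.78 against R1 (adjusted p = 0.000485, 11 of 11), a call lost with near-identical arrays averaged. OSE clones and R1 did not differ beyond their spread (log2 difference 0.08, SE 0.19, adjusted p = 0.753), and the sign turned in the scaled table (-0.18), with array weights (-0.05) and without R1 replicate 1 (-0.02). OSKT did not pass against OSK (-0.26, adjusted p = 0.139). Its neighbour Tap1, which shares the window printed above, differed by -0.10 in OSE against OSK (adjusted p = 0.516 by limma). Tap1 was above background on only 2 of 8 OSE and 7 of 11 OSK arrays, so these values cannot show whether the neighbours differ.

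Psmb10, the other catalytic subunit of the immunoproteasome, was above background on all 36 arrays and highest in OSE clones. It averaged 11.65 ± 0.28 in OSE, 10.76 ± 0.20 in OSKT and 10.62 ± 0.18 in OSK clones, against 10.42 ± 0.19 in D3 and 10.22 ± 0.07 in R1. It was 2.05-fold higher in OSE than in OSK clones (adjusted p = 3.28e-11, 8 of 8 clones), with no overlap. Against R1 its differences were 1.43 in OSE, 0.54 in OSKT and 0.40 in OSK clones (adjusted p = 2.62e-12, 0.000151 and 0.00396). Near-identical averaging ended the last 2 calls, and median scaling the OSK call (0.18). The constitutive subunits that the immunoproteasome subunits replace are Psmb5, Psmb6 and Psmb7. Against R1, Psmb6 fell by 0.38, 0.34 and 0.44 and Psmb7 by 0.26, 0.20 and 0.32 in OSE, OSKT and OSK clones. The Psmb7 call in OSKT ended with near-identical arrays averaged (-0.19) and in the authors' scaled table (-0.13). Psmb5 differed by 0.28, -0.38 and -0.28 in the same order, and these calls ended with near-identical arrays averaged. In OSE against OSK, Psmb5 was 0.56 higher (adjusted p = 6.00e-06), beside Psmb9 and Psmb10.

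**Figure D4:**
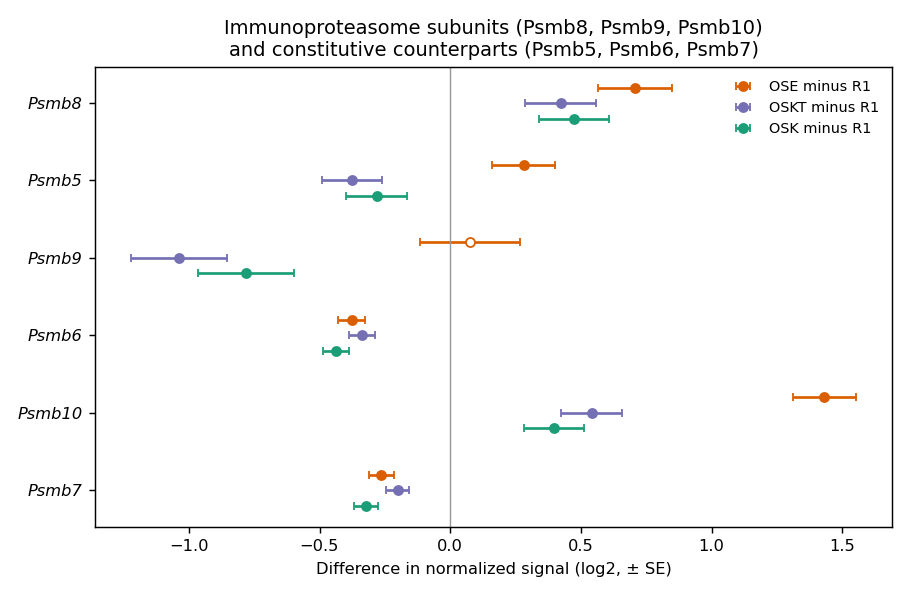
Log2 difference ± SE of the immunoproteasome subunits Psmb8, Psmb9 and Psmb10 and of their constitutive counterparts Psmb5, Psmb6 and Psmb7 in OSE, OSKT and OSK clones against R1, filled where the adjusted p is under 0.05. Psmb8 and Psmb10 lie right of 0 and Psmb6 and Psmb7 left of 0 in the 3 sets, and Psmb9 lies left of 0 in OSKT and OSK.

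Of the 10 genes listed for the proteasome, all were tested. Against R1, 6 were called higher and 2 lower in OSE, 5 and 5 in OSKT, and 5 and 5 in OSK clones, beside the same 58.7%, 54.3% and 53.8% over all features. Psme1 and Psme2, the subunits of the interferon-inducible activator PA28, were 0.61 and 0.55 higher in OSE, 0.56 and 0.77 in OSKT, and 0.51 and 0.71 in OSK clones than in R1. Pomp, a proteasome assembly factor, was 0.70, 0.70 and 0.58 higher in those sets. Psme1 in OSK no longer passed under median scaling (0.22).

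Of 21 listed transcriptional regulators of class I genes, 19 were measured and 12 tested, and against R1 6 were called higher and 5 lower in OSE, 2 and 3 in OSKT, and 4 and 5 in OSK clones. With 58.7%, 54.3% and 53.8% of all features called in those comparisons, the OSKT count lies below that share and the OSE and OSK counts above it. The counts go in both directions, and nothing is read from them about the regulators. Nlrc5, the class I transactivator, was above background on 0 of 8 OSE, 1 of 11 OSKT, 0 of 11 OSK, 0 of 2 D3 and 1 of 4 R1 arrays, with signals from 18.5 to 67.2 intensity units. Irf1, an interferon-induced activator of class I genes, averaged 9.30 ± 0.32 in OSE, 9.58 ± 0.13 in OSKT and 9.12 ± 0.16 in OSK clones, against 8.68 ± 0.04 in D3 and 8.57 ± 0.08 in R1. It was higher than R1 by 0.74, 1.02 and 0.56 in those sets (adjusted p = 1.67e-06, 1.21e-09 and 6.14e-05), and higher in OSKT than in OSK clones by 0.46 (adjusted p = 5.58e-05). Near-identical averaging ended the OSK call. Rfxap, part of the factor that binds the X box of MHC promoters, was higher than R1 by 0.46, 0.70 and 0.35, of which 0.70 in OSKT passed with near-identical arrays averaged. Nfkb2, an NF-kB subunit, was 1.12 higher in OSE clones than in R1 (adjusted p = 5.26e-09) and fell by 0.85 in OSKT against OSK clones (adjusted p = 3.91e-08).

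Genes induced by interferon were called lower more often than higher in the comparison with R1. The list held 33 genes, of which 28 were measured and 17 tested. Against R1, 1 was called higher and 8 lower in OSE, 3 and 10 in OSKT, and 2 and 11 in OSK clones, with medians of -0.21, -0.48 and -0.72, where 29.9%, 27.9% and 28% of all features were called lower. In D3, 11 were called lower and 0 higher than in R1 (13 and 0 at an unadjusted p under 0.05), where 5.07% of all features were called lower. The filter asked for 4 arrays above background, which the 4 R1 arrays could meet alone and the 2 D3 arrays could not. Of the 28 measured genes, 16 were above background on some R1 array and 8 on some D3 array. A gene seen in D3 alone was never tested, so the D3 counts are descriptions. Ifit3 averaged 6.81 ± 0.27 in OSE, 6.40 ± 0.27 in OSKT and 6.60 ± 0.18 in OSK clones, against 6.16 ± 0.10 in D3 and 8.91 ± 0.02 in R1. Ifi27 averaged 9.25 ± 0.48, 8.01 ± 0.55 and 8.39 ± 0.59 in those clones, against 7.06 ± 0.01 in D3 and 11.25 ± 0.16 in R1. R1 thus had the highest B2m and the highest Ifit3 and Ifi27 of the 5 groups, beside the lower H2-D1 and Tap2. Of 12 tested receptors and signal genes of interferon and TNF, 3 were called higher and 6 lower in OSE, 2 and 5 in OSKT, and 1 and 3 in OSK clones than in R1. Over all features, 58.7%, 54.3% and 53.8% were called in those comparisons, and nothing is read from these counts.

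The 8 measured genes did not follow 1 pattern over the arrays. Pearson's r between each gene and the mean of the 8 standardized genes over 36 arrays was 0.92 for Tap2, 0.71 for Psmb8, 0.70 for Tap1, 0.68 for H2-K1, 0.55 for Tapbp, 0.41 for H2-D1, 0.29 for B2m and 0.08 for Psmb9. Each gene is part of that mean, and the arrays share groups. The other genes closest to the mean were H2-T22 (r = 0.89), Scd2 (0.89), Cope (0.88), Aacs (0.88) and Zfp36 (0.88). Within the 30 clones, with each set's mean taken away, they were Gabra3 (0.78), Psme1 (0.73), Tmem87a (0.72), H2-T22 (0.69) and Cxcl12 (0.67). H2-T22 was in both.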

How the data were processed

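RNA from 36 mouse samples was read on a one-colour Illumina bead array. The authors deposited signal intensities that were not scaled between arrays, exported from BeadStudio per the submitters' processing notes (no version given), with 25.4% to 29.6% of measured probes below 0 on each array. They also deposited a scaled table of intensities, used here as an alternative. How the background was subtracted is not given in the sources used here, and no control probes, detection p-values or slides were used.

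Of 24613 probes, 5893 lay between -5.5 and 15.5 on every array and were left out as placeholders, which leaves 18720. Symbols came from the platform annotation (20984 probes on 1 symbol, 1 on several, 3628 on none). The steps were normexp (saddle, offset 16), quantile normalization and log2 in limma 3.58.1 under R 4.3.3. A probe was tested if at least 4 arrays read it above background (10572 probes), and taking the highest-mean probe of each gene gave 10533 features. A linear model had 1 mean per group over all 36 arrays, with an intensity trend, 2-sided p-values and Benjamini-Hochberg adjustment over all features. The number of arrays limits the precision. Nothing in the labels says that the R1 or D3 replicates were separate thaws or the clones separate inductions, so p-values measure only the spread between these samples. The fit was tested on simulated data. Where a group had no array above background, a fold is a bound against the lowest signal above background on each array.

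The 9 genes, the gene lists and the comparisons were chosen with earlier results of these data known. Named genes were the members, up to 4 tested genes with the smallest p from each list, the constitutive counterparts Psmb5, Psmb6 and Psmb7, and the 5 genes closest to the members over 36 arrays and over 30 clones. Psmb10 is on the proteasome list. Nlrc5, Ptprc and other markers were named for their lack of signal, and Cd1d1, H2-Bl and Fcgrt were grouped by order, after their values were seen. Promoter letters came from RefSeq (GRCm38.p6), and alignment used Biopython 1.88. The array files name no genome build.

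Same-numbered clones and replicates were checked for pairing. The correlations of their deviations from group means ran from 0.013 to 0.627 over 11 pairs of OSKT and OSK and from -0.257 to 0.591 over 8 pairs of OSE and OSK, so the numbers were not taken to pair samples. Alternatives were another table, scaling, background correction, offset, filter, probe rule, sample set, block, clone-number term, array weights, left-out replicates and averaged near-identical arrays. The fibroblast covariate, the fits within clone numbers and the fit without OSKT clone 4 were chosen after seeing the data.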

Additional observations from a re-analysis of the deposited data

Results flagged for a closer look

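Tapbp in OSE clone 7 lay apart from the other 7 OSE clones, at a normalized log2 signal of 7.42, where the next clone was at 7.68 and the highest at 7.89. Groups of 8 or 4 samples were tested for such outliers with Dixon's criterion, 16 in all over the 8 measured genes, and this was the 1 that passed. Chance gives about 1 in 20 such tests, so 1 among 16 is not beyond what chance can give.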

How the results depend on the processing

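Over the 8 genes, 7 comparisons and their alternatives, 892 differences kept their direction and side of the threshold, 33 no longer passed, 25 newly passed and 12 turned sign. Depth in counts does not apply, and signals near background limit Tap1, Psmb8, Psmb9 and H2-D1 in ES cells. The cause of no change below was tested. Where arrays were averaged or left out, the fits also had fewer samples. Psmb9 in OSE minus R1 was -0.18 in the authors' scaled table and -0.049 with array weights. H2-D1 in D3 minus R1 was 0.083 in the scaled table. With the replicate block, H2-K1 in OSKT minus R1 was -0.0069. Psmb8 in OSKT minus OSK was 0.077 with near-identical arrays averaged and 0.021 within clones 5 to 11, and Tap1 there was 0.094 within clones 1 to 4. With the fibroblast covariate, the clones minus D3 gave -0.50 for B2m and -0.052 for Psmb8. Both values are extrapolations, since the D3 marker means lay below those of all clones.

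Averaging near-identical arrays left R1 and D3 with 1 sample each, assumed to vary like the other groups. It changed the genes called from 2 to 1 of 8 in OSKT minus OSK, from 7 to 3 in OSK minus R1, from 5 to 3 in OSE minus R1, from 7 to 4 in the clones minus D3 and from 1 to 0 in D3 minus R1, where limma gave 1 at an unadjusted p under 0.05. Features called were then 1365 in OSKT minus OSK, 3027 in OSE minus OSK, 2386 in OSK minus R1, 2454 in OSKT minus R1, 2917 in OSE minus R1, 60 in D3 minus R1 and 2889 in the clones minus D3, against 3738, 4824, 5664, 5723, 6178, 1025 and 4959. In D3 minus R1, genes called were 4 in the scaled table and with array weights, 2 with no background correction and 3 with only those groups, where 3346 features were called, and 3557 with array weights. Within clones 1 to 4, 1 of 8 genes was called in OSKT minus OSK.

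With R1 or D3 replicates left out in turn, features called ran from 314 to 854 in D3 minus R1, Psmb9 in OSE minus R1 ran from -0.017 to 0.16 and Psmb8 in D3 minus R1 from -0.083 to 0.24. Features called in the clones minus D3 ran from 3293, without D3 replicate 1, to 4980, without OSKT clone 4, whose array had the widest noise.

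The replicate numbers were not shown to pair samples: 2 of 11 OSKT clones correlated best with the OSK clone of their own number, and 2 of 8 OSE clones. With the number as a block, features called were 4318 in OSKT minus OSK and 4898 in OSE minus OSK, and genes called 2 and 4. A filter at 18 arrays left out Tap1 and Psmb9, so they have no value there. A slide block was not run.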

Other observations

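Among MHC class II genes, which present peptides from outside the cell, H2-DMb1 and H2-Eb1 had the order of clone sets seen for H2-D1. Of 11 listed, 9 were measured and 5 tested. H2-DMb1, part of the class II peptide exchanger, averaged 7.60 ± 0.30 in OSE (SD, n = 8), 9.26 ± 0.41 in OSKT (n = 11) and 8.69 ± 0.37 in OSK clones (n = 11), against 7.55 ± 0.03 in D3 (n = 2) and 7.79 ± 0.16 in R1 (n = 4). H2-Eb1, a class II β chain, was above background on 0 of 8 OSE, 11 of 11 OSKT, 9 of 11 OSK and none of the ES arrays. It averaged 8.14 ± 0.20 in OSKT clones and 6.60 ± 0.20 in R1, and it passed the filter through the OSKT and OSK arrays alone, so no test is given. Cd74, the invariant chain, was 0.43 higher in OSKT than in OSK clones (adjusted p = 8.82e-05 by limma). Its signal was above background on 5 of 8 OSE, 11 of 11 OSKT and 3 of 11 OSK arrays. H2-Aa, a class II α chain, and Ciita, the class II transactivator, were above background on 0 of 36 arrays. The H2-DMb1 difference of OSKT from OSK, 0.57, did not pass with near-identical arrays averaged (0.44).

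Of 13 listed ligands of natural killer cell receptors, 6 were measured and 3 tested. Pvr averaged 7.94 ± 0.32 in OSE, 9.13 ± 0.24 in OSKT and 8.92 ± 0.27 in OSK clones, against 7.51 ± 0.11 in D3 and 7.47 ± 0.07 in R1. Its differences from R1 were 0.47, 1.66 and 1.45 in those sets (adjusted p = 0.00841, 5.44e-12 and 1.66e-10 by limma), the first of which did not pass with near-identical arrays averaged (0.53).

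Other lists gave counts only. Leukocyte genes that passed the filter were 5, of which 2 were called higher and 2 lower in OSE, 2 and 1 in OSKT, and 2 and 1 in OSK clones than in R1. Endoderm markers tested were 5, of which 1, 1 and 2 were called higher in those sets. Of 14 pluripotent cell markers, 2 were called higher and 10 lower in OSE, 2 and 8 in OSKT, and 2 and 9 in OSK clones. Over all features, 28.7%, 26.4% and 25.8% were called higher in those comparisons, and 29.9%, 27.9% and 28% lower. A count near these shares is no result about the genes of its list.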
